A study of Mus musculus with 28 samples.

Results

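The data describe 10 genes of the integrated stress response in mice that express human APOBEC3B (A3B), a cytidine deaminase. The genes are Atf4, Ddit3, Atf5, Trib3, Chac1, Ppp1r15a, Sesn2, Asns, Psat1 and Phgdh, and they were chosen by name for their place in this pathway. All 10 were found, among 35928 gene symbols in the liver and pancreas samples of set 2 and among 24845 uniquely named rows in the liver and lung samples of set 1. All 10 passed the filters on low values in each comparison. Bulk RNA-seq of whole tissue was measured, so fewer cells of a type and less RNA per cell cannot be told apart.

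The integrated stress response is the shared answer of a cell to unfolded protein in the endoplasmic reticulum, amino acid shortage, viral double-stranded RNA or heme shortage. Sensor kinases phosphorylate the translation factor eIF2 alpha, most protein synthesis slows, and the messenger RNA of the transcription factor ATF4 is translated. ATF4 then switches on genes for amino acid synthesis and transport, for redox balance and for shutting the response off again. In liver the pathway is known for adjusting serine and asparagine synthesis to nutrient supply, and in the exocrine pancreas the kinase PERK is known to be needed by the heavily secreting acinar cells.

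In the mice, a human A3B transgene fused to turbo-GFP sat behind a Tet operator at the ColA1 locus and was switched on by doxycycline through a CAGs-rtTA3 driver, which is active in most tissues. Doxycycline was given in the food from about 4 weeks of age, and controls were littermates, most of them labelled as carrying the transgene alone. Set 2 held liver of 6 A3B mice (44, 48, 49, 125, 137 and 153) and pancreas of 6 (44, 49, 53, 125, 137 and 153), with liver and pancreas of the same 2 control mice (45 and 168), all at 10 days by the labels. The study's methods and mouse list have these controls on doxycycline and another passage of it describes the control animals as without, and if they had none, doxycycline and A3B cannot be told apart in set 2. Set 1 held liver of 3 A3B mice (23 and 28 at 14 days, 70 at 10 days) and of 3 controls (11, 91 and 92), and lung of 3 A3B mice (69, 70 and 74 at 10 days) and of 3 controls (87, 88 and 91). The label of every control in set 1 reads 15 days, a time that no A3B mouse had, so time and genotype cannot be told apart there, and the study's mouse list has mice numbered 11, 88, 91 and 92 as without doxycycline.

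Groups were taken from the sample titles, and some genotype labels go against them. The A3B pancreases 44 and 137 carry the label of the transgene alone, and the control pancreases 45 and 168 and the control liver 11 carry the label of both transgene and driver. The livers of mice 44, 137, 45 and 168 are labelled as their titles would have it. Control lung 87 carries the driver alone, and the other controls carry the transgene alone. Set 1 had a row for the human transgene, which read 705 to 1705 TPM (abundance scaled for transcript length and library total) in the A3B livers and 0.0928 to 0.144 in the control livers, control 11 included. It read 90.6 to 281.0 TPM in the A3B lungs and 0.435 to 0.526 in the control lungs. Set 2 was not checked in this way.

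Set 2 libraries held 65161064 to 118976013 estimated counts, and the TPM table of set 1 gives no depth. The 8 hepatocyte markers summed to 33350 to 78440 TPM in A3B livers and to 96230 to 143000 in control livers of set 2, and to 6167 to 8274 against 10100 to 11360 in set 1. The 8 acinar markers summed to 63060 to 170100 TPM in A3B pancreases and to 372500 to 378500 in the 2 controls. Marker sums of 7 other lists were higher in all 6 A3B pancreases than in both controls. The 6 endocrine markers summed to 3413 and 3485 TPM in controls and 3650 to 13270 in A3B pancreases, the 8 hepatocyte markers to 48.93 and 68.76 and to 113.3 to 969.1, and the 7 alveolar and airway markers to 1.446 and 4.507 and to 27.73 to 112.4. The 6 ductal markers summed to 103.2 and 137.7 TPM in controls and 1309 to 3010 in A3B pancreases, and the 7 fibroblast markers to 42.16 and 189.1 and to 970.7 to 1509. The 7 macrophage markers summed to 48.68 and 555.5 TPM in controls and 1910 to 5610 in A3B pancreases, and the 5 endothelial markers to 8.216 and 18.63 and to 61.71 to 96.89. The sums overlapped for the 6 B and plasma cell markers (1.405 and 106.5 TPM in controls, 2.899 to 97.78 in A3B pancreases), 7 T cell markers (0.4707 and 41.23, 11.29 to 108.4), 5 neutrophil markers (7.076 and 43.03, 12.19 to 134.4) and 5 adipocyte markers (43.04 and 396.9, 138.0 to 929.9). Control 168 had the higher value of the 2 controls for the macrophage list and for these 4. In liver the 5 adipocyte markers summed to 11.23 to 16.42 TPM in controls and 27.1 to 255.7 in A3B samples of set 2, and to 25.24 to 27.93 and 141.8 to 741.6 in set 1. The neutrophil markers summed to 3.708 and 5.162 TPM in controls and 5.676 to 100.9 in A3B livers of set 2, without overlap, and to 10.66 to 22.84 and 13.53 to 119.9 in set 1. The 7 alveolar and airway markers summed to 18350 to 19890 TPM in A3B lungs and to 19490 to 20830 in controls. Macrophage markers were lower in all A3B lungs (1083 to 1254 TPM) than in controls (1351 to 1440), T cell markers ran from 125.1 to 167.1 against 166.2 to 308.7 and endothelial markers from 837.0 to 1116 against 1029 to 1273. Neutrophil markers ran from 139.3 to 445.9 TPM in A3B lungs, highest in lung 74, against 85.42 to 181.5 in controls. Adipocyte markers ran from 207.9 to 1036 TPM, highest in lung 70, against 118.4 to 305.5. The part of these other cell types in the results was not tested. Among the 8 livers of set 2, the A3B liver 49 had the lowest hepatocyte sum and the highest macrophage (952.5 TPM), neutrophil (100.9, next 37.18) and adipocyte (255.7) sums, and the A3B liver 48 had the lowest endothelial (6.41), macrophage (23.9) and fibroblast (24.1) sums.

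All 10 genes matched the RefSeq promoter table (GRCm38.p6, 250 bases before to 50 after each start, 12 promoters in all). The C/EBP-ATF response element, searched as TGATGNAA on both strands, was found in promoters of 3 of the 10 genes and in 3.97% of the table's 32851 promoters. The palindromic ATF/CRE site TGACGTCA, which does not overlap the other motif by sequence, was found in 1 of the 10 and in 1.79% of all. The 4 windows are shown because they hold the letters that ATF4 and its partners are known to bind, with the motif in capitals, each on the strand of its gene. Distances are counted from the RefSeq starts, which lie 45 bases (Asns), 28 bases (Trib3) and 13 bases (Chac1) from the starts of the gene coordinates given with the values and at the same base for Ppp1r15a. Against those coordinates the Asns match lies within the gene and the Trib3 match before it. Asns has its match 23 bases before the start, within chr6:7693200-7693257 on the minus strand. Ppp1r15a has the palindrome 12 bases before the start, within chr7:45526248-45526305 on the minus strand. Chac1 has its match on the other strand 193 bases before the start, within chr2:119351024-119351081 on the plus strand, and Trib3 has its match on the other strand beginning at base 14 after the start, within chr2:152344014-152344071 on the minus strand.
Asns: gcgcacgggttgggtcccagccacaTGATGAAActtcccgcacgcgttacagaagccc
Chac1: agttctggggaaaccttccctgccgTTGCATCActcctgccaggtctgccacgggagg
Trib3: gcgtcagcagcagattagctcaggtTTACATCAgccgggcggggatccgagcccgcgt
Ppp1r15a: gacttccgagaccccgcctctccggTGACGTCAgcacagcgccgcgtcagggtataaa

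In the livers of set 2, the question was whether the stress genes differed between A3B mice and controls after 10 days. By TPM, 4 of the 10 genes were higher in all 6 A3B livers than in either control, namely Atf4, Ddit3, Ppp1r15a and Sesn2, where 24.3% of all 17376 genes tested were. None of the 10 lay lower in this sense, where 5.42% of genes did. In edgeR's quasi-likelihood test 0 of the 10 passed an adjusted p of 0.05, beside 3.66% of all genes (1.25% higher and 2.41% lower). The unadjusted p was under 0.05 for Ppp1r15a and Sesn2, and the share of all genes under that cut-off was not taken. DESeq2 called 1 of the 10, Sesn2, beside 13.8% of all genes, and limma on log2(TPM + 1) called 0, beside 6.02%. With counts scaled by their totals, 5.05% of genes were called higher and 1.39% lower, and Sesn2 alone of the 10.

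Atf4 (ENSMUSG00000042406.8, chr15:80255184-80257541, plus strand) encodes the transcription factor at the centre of the response. It read 43.1 and 64.6 TPM in control livers and 74.9 at the lowest, 107 at the median and 131 at the highest in A3B livers. All 6 A3B livers lay above both controls, 1.96 times as high on average, with a log2 fold change of 0.58 (SE 0.33) in edgeR and an adjusted p of 0.319. Ddit3 (ENSMUSG00000025408.15, chr10:127290774-127296288, plus strand) encodes CHOP, a factor known for driving cell death under lasting stress. It read 7.01 and 7.80 TPM in controls and 10.2, 21.9 and 97.7 as lowest, median and highest in A3B livers. The highest value belonged to liver 49, and the groups did not overlap (log2 fold change 1.68, SE 0.78, edgeR adjusted p = 0.232).

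Atf5 (ENSMUSG00000038539.15, chr7:44812256-44816658, minus strand), a related factor translated under the same conditions, had the highest level per length of the 10 in every liver of this set. Its control livers read 246 and 252 TPM, and its A3B livers ran from 158 through a median of 273 to 354. The groups overlapped, and the log2 fold change was -0.26 (SE 0.38) with TMM scaling and 0.20 with counts scaled by their totals, so that it has no fixed sign. In liver 48, which had the top value, isoform Atf5-202 took 20503 estimated counts beside 15955 of Atf5-201, where the other 7 livers had 34 to 259 counts of Atf5-202.

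Trib3 (ENSMUSG00000032715.9, chr2:152337422-152344032, minus strand) encodes a pseudokinase that restrains ATF4 activity. It read 7.67 and 9.32 TPM in controls and 3.90, 14.4 and 38.4 as lowest, median and highest in A3B livers. Liver 48 lay below both controls and the other 5 above (log2 fold change 0.52, SE 0.60, edgeR adjusted p = 0.639). Ppp1r15a (ENSMUSG00000040435.12, chr7:45522916-45526268, minus strand) encodes GADD34, which brings a phosphatase to eIF2 alpha and ends the response. It read 7.04 and 8.90 TPM in controls and 13.9, 22.4 and 54.4 in A3B livers, all 6 above the controls and 3.41 times as high on average (log2 fold change 1.03, SE 0.45, edgeR adjusted p = 0.211). In liver 48, 26.55 TPM came from isoform Ppp1r15a-203, on 377.9 estimated counts, and isoform Ppp1r15a-201 read 8.682 TPM there beside 6.099 and 8.635 in the controls.

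Sesn2 (ENSMUSG00000028893.8, chr4:132492032-132510501, minus strand) encodes a leucine sensor that holds back the growth kinase mTORC1 and is also a target of p53. It read 2.99 and 5.37 TPM in controls and 7.21, 13.3 and 26.3 as lowest, median and highest in A3B livers. All 6 A3B livers lay above both controls, with a log2 fold change of 1.49 (SE 0.45), an unadjusted p of 0.0076 and an adjusted p of 0.0921 in edgeR. It was the gene of the 10 nearest to the threshold, and it passed with counts scaled by their totals (1.91, adjusted p = 0.0373), in DESeq2 (1.42, 0.0236) and in an edgeR fit over all 16 samples of the set (1.41, 0.0299), which called 9.86% of all genes in liver. Chac1 (ENSMUSG00000027313.3, chr2:119351229-119354381, plus strand), whose enzyme breaks down glutathione, read 4.65 and 7.29 TPM in controls. In A3B livers it ran from 0.657 through 2.39 to 11.2 TPM, with 5 of the 6 below both controls and liver 49 above (log2 fold change -1.12, SE 0.87, edgeR adjusted p = 0.465).

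Asns (ENSMUSG00000029752.12, chr6:7675169-7693254, minus strand), asparagine synthetase, read 0.907 and 3.67 TPM in controls and 0.834, 11.1 and 44.3 as lowest, median and highest in A3B livers. Psat1 (ENSMUSG00000024640.9, chr19:15904678-15947337, minus strand), an enzyme of serine synthesis, read 0.833 and 0.857 TPM in controls and 0.343, 2.74 and 50.9 in A3B livers. Phgdh (ENSMUSG00000053398.11, chr3:98313170-98339990, minus strand), which opens serine synthesis, read 0.269 and 0.332 TPM in controls and 0.199, 0.744 and 21.7 in A3B livers. Each had 4 or 5 A3B livers above the controls and at least 1 below, so the groups overlapped.

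The fitted log2 fold changes of these enzymes were large and their errors larger than for the regulators. They came to 2.55 for Asns (SE 1.43, edgeR adjusted p = 0.321), 2.99 for Psat1 (SE 2.05, 0.416) and 3.99 for Phgdh (SE 1.95, 0.256). Liver 49 was the highest of the 8 livers for 6 of the 10 genes (Ddit3, Trib3, Chac1, Ppp1r15a, Psat1 and Phgdh), and liver 48 was the lowest for 3 (Trib3, Asns and Psat1). Without liver 49 alone, Psat1 came to 0.86, Phgdh to 1.77, Asns to 2.13 and Trib3 to 0.02. With livers 48 and 49 both left out, a choice made after seeing the data, 2 of the 10 passed in edgeR, Ddit3 at 0.96 (adjusted p = 0.0307) and Sesn2 at 1.59 (0.0374), and Phgdh came to 1.97. That fit called 18.4% of all genes. The part of the lower hepatocyte and higher macrophage, neutrophil and adipocyte markers of liver 49 in its values was not tested.

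**Figure D1:**
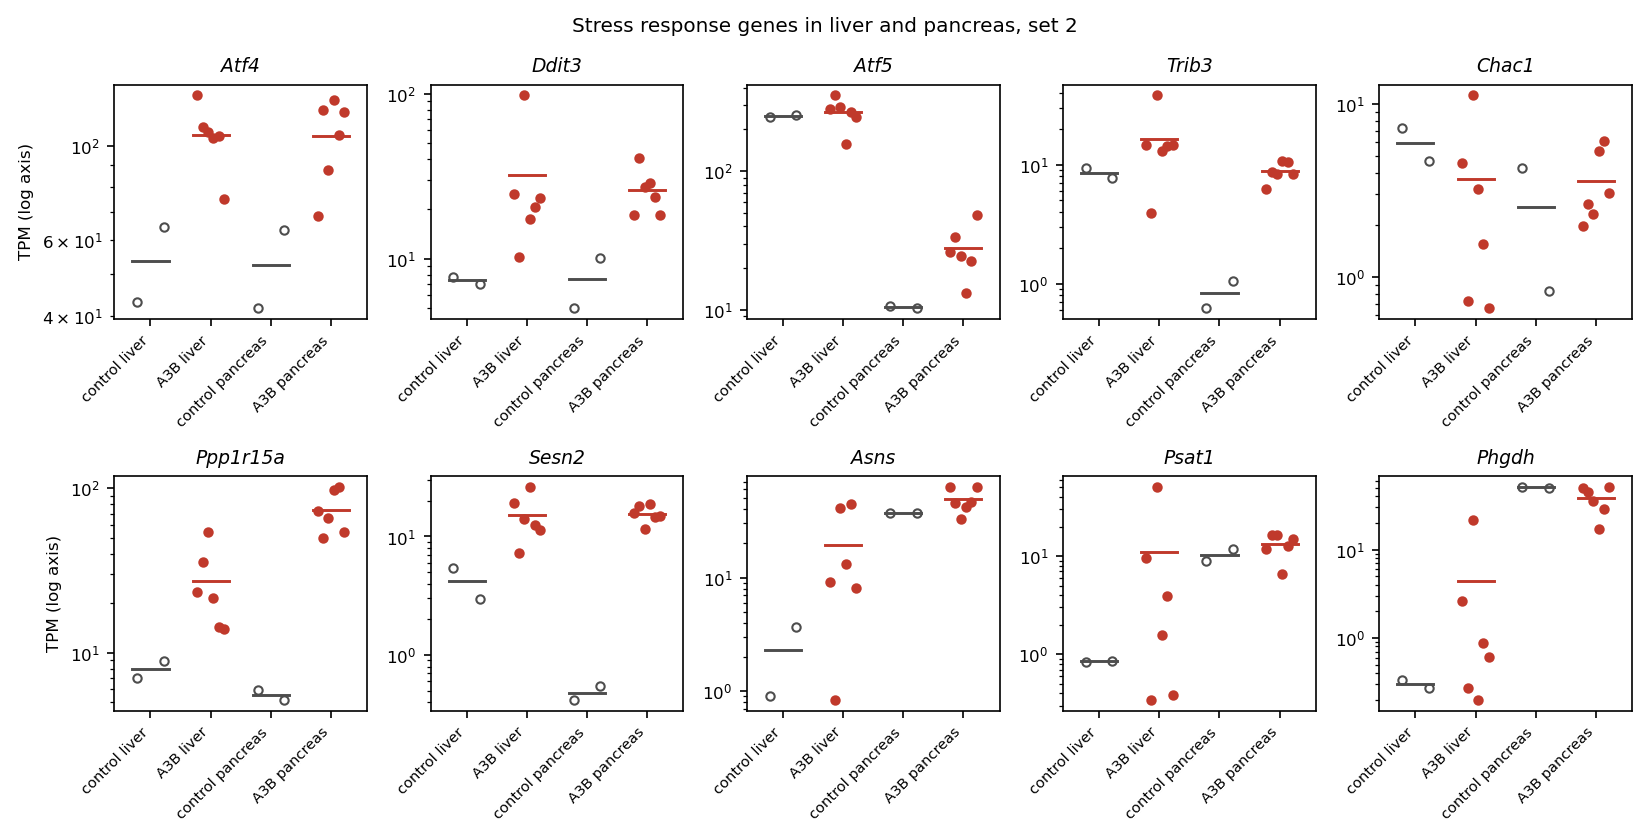
TPM of each gene (log axis, each panel with its own range) in the control livers (n = 2), A3B livers (n = 6), control pancreases (n = 2) and A3B pancreases (n = 6) of set 2, with open circles for controls, filled circles for A3B samples and a line at the group mean. Sesn2 and Ppp1r15a lay above both controls in all 6 A3B samples of each tissue, and Asns, Psat1 and Phgdh were spread widely over the A3B livers.

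In the pancreas of the same set, what the genes did depended on how the libraries were scaled, and both scales are given for each gene. By TPM, 6 of the 10 were higher in all 6 A3B pancreases than in either control (Atf4, Ddit3, Atf5, Trib3, Ppp1r15a and Sesn2) and 0 were lower, but 70.8% of all 19142 genes tested were higher in this sense and 1.07% lower. With TMM, which centres each library on the bulk of its genes, edgeR called 8 of the 10, with 3 higher (Trib3, Ppp1r15a and Sesn2) and 5 lower (Atf4, Chac1, Asns, Psat1 and Phgdh), beside 31.9% of all genes (17.0% higher and 14.9% lower). With counts scaled by their totals edgeR called 6 of the 10, the same 6 as above and all higher, beside 70.4% of genes called higher and 1.10% lower. Over all genes the median log2 fold change was 0.09 in the TMM fit and 2.29 with totals. The TMM factors were 0.210 and 0.443 in the controls and 1.30 to 1.79 in the A3B pancreases, and the acinar marker sum was higher in the controls, where the factors were lower. The part of the acinar transcripts in these values was not tested.

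Sesn2, Ppp1r15a and Trib3 were higher on both scales. Sesn2 read 0.418 and 0.548 TPM in control pancreases and 11.5, 15.3 and 18.8 as lowest, median and highest in A3B pancreases, 32.3 times as high on average. Its log2 fold change was 2.70 (SE 0.32, edgeR adjusted p = 0.000325) with TMM and 5.02 with totals, the largest rise of the 10 on either scale. Ppp1r15a read 5.18 and 5.93 TPM in controls and 49.5, 69.2 and 102 in A3B pancreases, with log2 fold changes of 1.90 (SE 0.42, adjusted p = 0.0068) and 4.16. Trib3 read 0.617 and 1.06 TPM in controls and 6.24, 8.51 and 10.8 in A3B pancreases, with log2 fold changes of 1.13 (SE 0.32, adjusted p = 0.0207) and 3.38. Trib3 did not pass with TMM without control 168 (0.94, adjusted p = 0.113) or over the 16 samples of the set (1.21, 0.103). For these 3 genes every A3B pancreas was several times above both controls.

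The transcription factors were higher by TPM and not higher relative to most other genes. Atf4 read 41.6 and 63.4 TPM in controls and 68.5, 113 and 128 as lowest, median and highest in A3B pancreases. Its log2 fold change was -1.30 with TMM (SE 0.27, edgeR adjusted p = 0.0054) and 1.01 with totals (adjusted p = 0.0167), so that the call turned with the scale. Ddit3 read 4.99 and 10.1 TPM in controls and 18.4, 25.5 and 40.9 in A3B pancreases, with log2 fold changes of -0.06 (SE 0.24, adjusted p = 0.863) and 2.17 (adjusted p = 0.00125). Atf5 read 10.2 and 10.6 TPM in controls and 13.3, 25.1 and 48.3 in A3B pancreases, with log2 fold changes of -0.99 (SE 0.43, adjusted p = 0.107) and 1.42 (adjusted p = 0.0129). All 3 thus lay above both controls in every A3B pancreas by TPM, and below the median of all genes on both scales.

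The amino acid enzymes lay below the median of all genes on both scales. Asns read 37.11 and 37.14 TPM in control pancreases and 32.8, 46.1 and 63.4 in A3B pancreases. Its isoform Asns-201 alone read 27.3 and 27.82 TPM in controls and 31.19 to 61.57 in A3B pancreases, without overlap. Its processed transcript Asns-206 read 8.044 and 4.993 TPM in controls and 0.0 to 7.187 in A3B pancreases. Psat1 read 8.84 and 11.7 TPM in controls and 6.62, 13.8 and 16.5 in A3B pancreases. Phgdh read 49.2 and 51.4 TPM in controls and 17.2, 40.0 and 50.9 in A3B pancreases. The groups overlapped for each of them by TPM, with 5 of 6 A3B pancreases above both controls for Asns and Psat1 and 0 of 6 for Phgdh.

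With TMM the enzymes passed as lower, at -1.76 for Asns (SE 0.35, edgeR adjusted p = 0.00424), -1.85 for Psat1 (SE 0.27, 0.000862) and -2.84 for Phgdh (SE 0.39, 0.000748). With totals none of the 3 passed, and the values were 0.61, 0.45 and -0.43, so Phgdh kept its sign and the other 2 did not. Chac1 read 4.24 and 0.833 TPM in the 2 controls, 45 and 168, and 1.97, 2.85 and 6.12 in A3B pancreases. It was lower with TMM (-2.22, SE 0.73, adjusted p = 0.0451), not with totals (0.46), and not without control 45, where its TMM value was 0.46. The Chac1 call was also lost without A3B pancreas 44, 49, 53, 125 or 153 (adjusted p from 0.0533 to 0.0838), with no filter on low counts (0.0762), with the covariate for Y-linked expression (0.0738) and over the 16 samples (0.0757). Without control 45 the TMM fit called 5 of the 10 (Trib3, Ppp1r15a, Sesn2, Psat1 and Phgdh), beside 19.0% of all genes, without control 168 it called 8 (Ppp1r15a and Sesn2 higher, Atf4, Atf5, Chac1, Asns, Psat1 and Phgdh lower), beside 28.2%, and over the 16 samples of the set it called 3 (Atf4, Ppp1r15a and Sesn2), beside 23.7%.

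**Figure D2:**
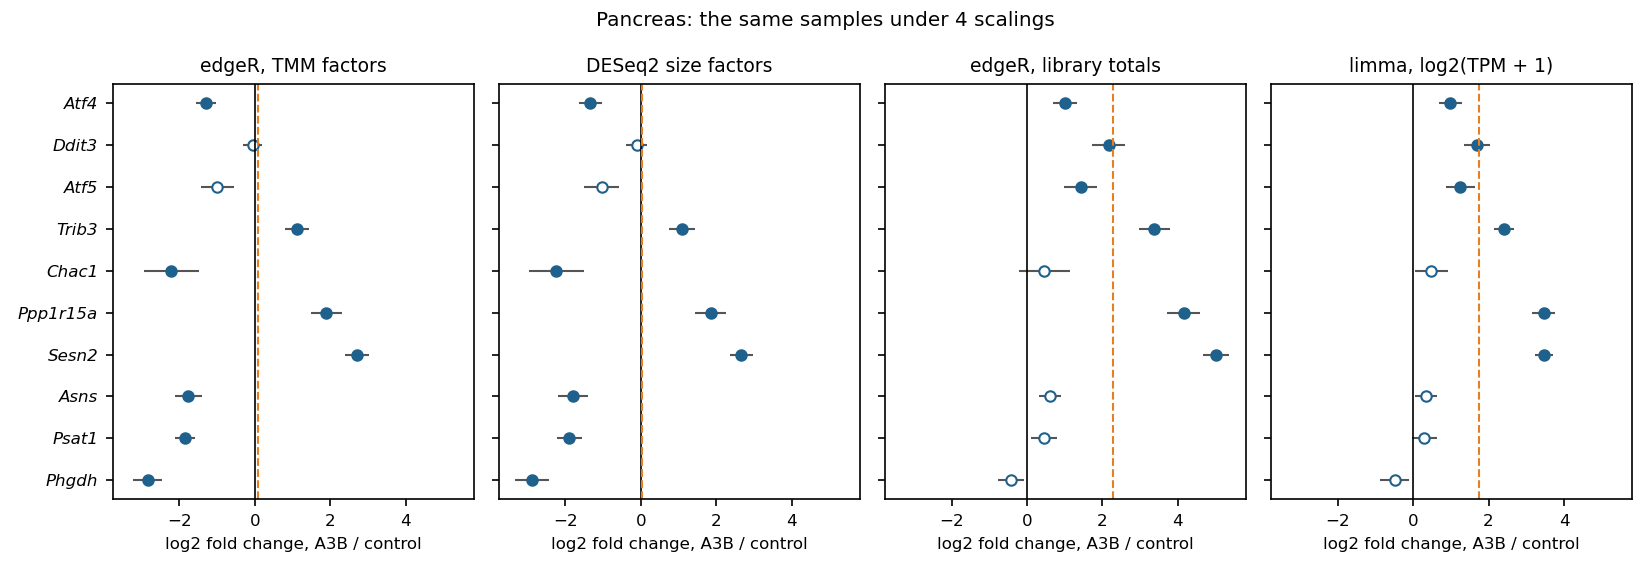
Log2 fold change (A3B over control) with its standard error for the 10 genes in pancreas, from the same 8 samples fitted with TMM factors, DESeq2 size factors, library totals and log2(TPM + 1), where filled circles passed an adjusted p of 0.05, open circles did not, and the dashed line is the median of all genes. Sesn2, Ppp1r15a and Trib3 lay above that median in each panel and Asns, Psat1 and Phgdh below it, while zero fell on different sides of Atf4, Ddit3, Atf5, Chac1, Asns and Psat1.

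An interaction term over the 16 samples asked whether the A3B effect was unequal in the 2 tissues of set 2. With TMM 2 of the 10 differed, both with a lower fold change in pancreas, beside 11.9% of all 19927 genes in edgeR (6.87% higher in pancreas and 5.02% lower). Atf4 differed by -1.72 (SE 0.42, edgeR adjusted p = 0.0183) and Phgdh by -6.63 (SE 2.0, 0.0446), on the log2 scale. The Phgdh difference joined a wide spread among A3B livers to a level in pancreas that ran to 51.4 TPM in controls. With counts scaled by their totals 4 of the 10 differed, Phgdh again at -5.07 and Trib3 (2.35), Ppp1r15a (2.63) and Sesn2 (3.10) with a higher fold change in pancreas, while Atf4 came to -0.04. On that scale 39.4% of all genes had a higher fold change in pancreas and 1.12% a lower one. Both tissues came from the same animals in 5 A3B and 2 control mice, and with the mouse as a replicate block 1 of the 10 passed, Sesn2 at 1.43 (adjusted p = 0.0386), beside 8.12% of all genes, and Atf4 (-1.61, adjusted p = 0.0714) and Phgdh (-5.03, 0.0663) did not. Without control mouse 45 it was 0 of the 10, beside 0.397% of all genes. Without mouse 44, 53, 137 or 168 it was 1, Atf4, beside 7.96, 9.62, 6.83 and 2.51% of all genes.

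In the livers of set 1, Sesn2 and Phgdh passed the test. By TPM, 4 of the 10 genes were higher in all 3 A3B livers than in all 3 controls (Ppp1r15a, Sesn2, Psat1 and Phgdh), where 28.5% of all 11507 genes tested were, and 1 was lower (Atf5), where 10.3% were. In limma on log2(TPM + 1) 2 of the 10 were called, both higher, beside 7.93% of all genes (6.07% higher and 1.86% lower). Over all genes the median log2 fold change was 0.39, and with samples centred on their medians 2.36% of genes were called higher and 3.98% lower. Levels in this set come from a separate pipeline and are not compared with those of set 2.

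Sesn2 read 2.06, 0.900 and 1.58 TPM in control livers 11, 91 and 92, and 8.75, 5.64 and 8.13 in A3B livers 23, 28 and 70. All A3B livers lay above all controls, with a log2 fold change of 1.77 (SE 0.32, limma adjusted p = 0.0285). Phgdh read 0.789, 0.740 and 0.860 TPM in the same controls, and 5.09, 13.6 and 8.20 in the same A3B livers. Its controls lay close together near the level of 1 TPM and its A3B livers 11.3 times as high on average, with a log2 fold change of 2.38 (SE 0.37, adjusted p = 0.0223). Both values are on the log2(TPM + 1) scale, which understates the change of genes at such levels.

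Psat1 read 4.26, 5.10 and 3.13 TPM in control livers 11, 91 and 92, and 109, 442 and 9.09 in A3B livers 23, 28 and 70 (log2 fold change 3.95, SE 1.20, limma adjusted p = 0.0761). Asns read 0.960, 0.651 and 0.224 TPM in the same controls and 7.29, 20.4 and 0.351 in the same A3B livers (1.97, SE 0.90, adjusted p = 0.174). Liver 70, the A3B liver taken at 10 days, was the lowest of the A3B livers for both, and for Asns it lay within the controls. Without liver 70 both passed, at 5.44 (adjusted p = 0.0119) and 3.07 (adjusted p = 0.022), together with Sesn2 and Phgdh, beside 11.6% of all genes. These were the highest values of the fits that left 1 liver out, and the lowest were 2.71 for Psat1 and 1.08 for Asns.

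Among the regulators, Ppp1r15a read 20.4, 16.4 and 17.2 TPM in controls and 41.4, 144 and 51.8 in A3B livers (log2 fold change 1.86, SE 0.48, limma adjusted p = 0.0546). Atf5 read 666, 934 and 903 TPM in controls and 499.5, 160 and 496 in A3B livers (-1.27, SE 0.49, adjusted p = 0.122), and was the single gene of the 10 with all A3B livers below all controls. Neither passed, though the groups did not overlap for either. Atf4 ran from 106 to 140 TPM in controls and from 129.99 to 188 in A3B livers, Ddit3 from 3.76 to 5.65 and from 3.93 to 9.75, Trib3 from 27.0 to 46.7 and from 44.4 to 114, and Chac1 from 20.2 to 59.1 and from 22.9 to 52.3. These 4 overlapped between groups, with log2 fold changes between -0.02 for Chac1 and 0.89 for Trib3 and adjusted p from 0.207 to 0.985. Liver 28 was the highest of the 6 livers for 7 of the 10 genes and the lowest for Atf5. It also had the lowest hepatocyte sum (6167 TPM), the highest macrophage (835.5), neutrophil (119.9) and adipocyte (741.6) sums of these livers and the lowest transgene level of the 3 A3B livers (705 TPM), and the part of these in its values was not tested.

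The 2 calls rested on few samples. Without control 91 or control 92 the count was 0 of the 10, beside 0.00862 and 0.0775% of all genes. Without A3B liver 23 it was 1 (Phgdh), beside 0.476%. Without control 11, whose genotype label goes against its title, Sesn2 and Phgdh remained, beside 13.6%. With samples centred on their medians Phgdh passed (1.92, limma adjusted p = 0.0234), Sesn2 missed narrowly (1.31, 0.0515) and Atf4 turned from 0.39 to -0.07.

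**Figure D3:**
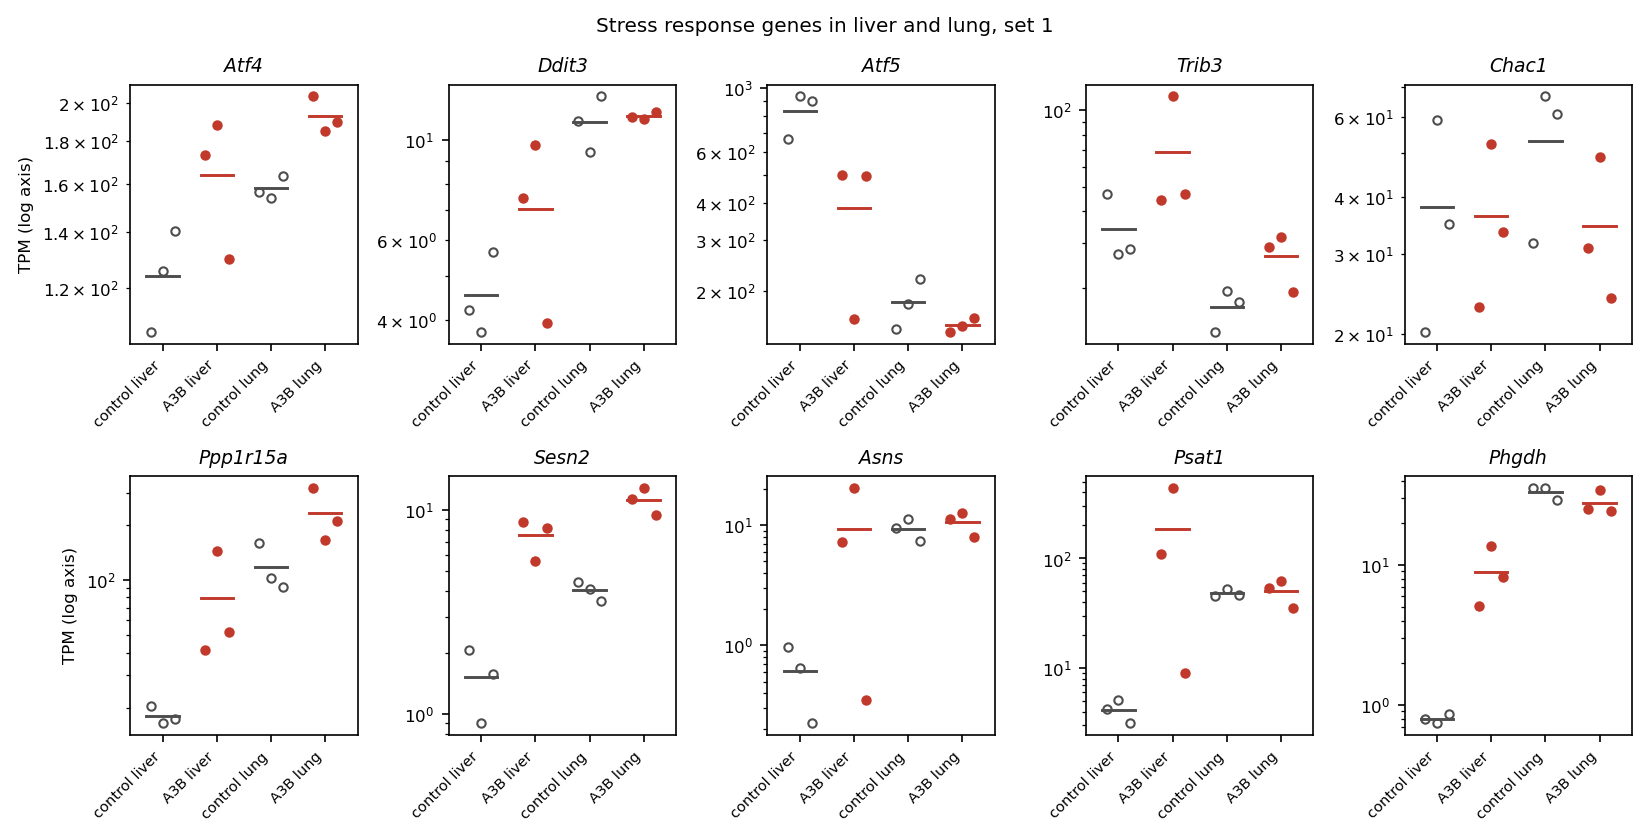
TPM of each gene (log axis, each panel with its own range) in the control livers, A3B livers, control lungs and A3B lungs of set 1 (n = 3 each), with open circles for controls, filled circles for A3B samples and a line at the group mean. Sesn2 and Ppp1r15a did not overlap between groups in either tissue, and Psat1 ran from 9.09 to 442 TPM over the A3B livers.

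In lung, 3 of the 10 genes were higher in all A3B samples than in all controls by TPM (Atf4, Ppp1r15a and Sesn2), where 23.3% of all 13651 genes tested were, and 0 were lower, where 30.6% were. The same 3 passed in limma, beside 36.8% of all genes (16.1% higher and 20.8% lower). Over all genes the median log2 fold change was -0.06. Sesn2 read 4.44, 4.10 and 3.57 TPM in control lungs 87, 88 and 91, and 11.3, 12.9 and 9.42 in A3B lungs 69, 70 and 74. The lowest A3B lung lay well above the highest control, at a log2 fold change of 1.27 (SE 0.14, limma adjusted p = 0.00294). Ppp1r15a read 159, 102 and 90.8 TPM in controls and 318, 165 and 210.07 in A3B lungs (0.96, SE 0.30, adjusted p = 0.0472). Atf4 read 156, 154 and 163 TPM in controls and 204, 185 and 190 in A3B lungs, a small difference with little spread (0.29, SE 0.08, adjusted p = 0.0383).

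The other 7 genes overlapped between the lung groups. Trib3 read 13.4, 19.3 and 17.6 TPM in controls and 28.9, 31.6 and 19.2 in A3B lungs (0.62, SE 0.22, limma adjusted p = 0.0619), with lung 74 inside the range of the controls. The synthesis enzymes had log2 fold changes of 0.15 (Asns, SE 0.20), 0.03 (Psat1, SE 0.21) and -0.26 (Phgdh, SE 0.16), and Ddit3 had 0.04 (SE 0.12). Phgdh was at 29.1 to 35.6 TPM in control lungs and 24.2 to 34.4 in A3B lungs, and Psat1 at 45.6 to 53.1 and 35.3 to 62.3. Leaving out control 88, control 91 or A3B lung 69, or centring samples on their medians, left 1 of the 10 called, Sesn2, beside 33.7, 24.1, 21.9 and 36.1% of all genes. Without lung 70, lung 74 or control 87 it was 2, Sesn2 each time with Ppp1r15a or Trib3, beside 22.7, 30.4 and 30.1%. Atf4 thus passed with all 6 lungs and in 0 of the 6 fits that left 1 lung out.

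Between the tissues of set 1, 1 of the 10 genes differed in its A3B effect, beside 10.7% of all 13477 genes in limma (8.81% higher in liver and 1.94% lower, or 2.26% and 4.81% with samples centred on their medians). Phgdh had a log2 fold change 2.64 higher in liver than in lung (SE 0.40, limma adjusted p = 0.00467). A3B mouse 70 and control mouse 91 gave both tissues, and with the mouse as a replicate block the Phgdh difference was 2.51 (adjusted p = 0.00159) and the only call among the 10, beside 19.3% of all genes. Psat1 differed by 3.92 (SE 1.41, adjusted p = 0.096) and Asns by 1.82 (SE 1.06, adjusted p = 0.27). Sesn2, higher in both tissues, differed by 0.50 (SE 0.31, adjusted p = 0.304).

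**Figure D4:**
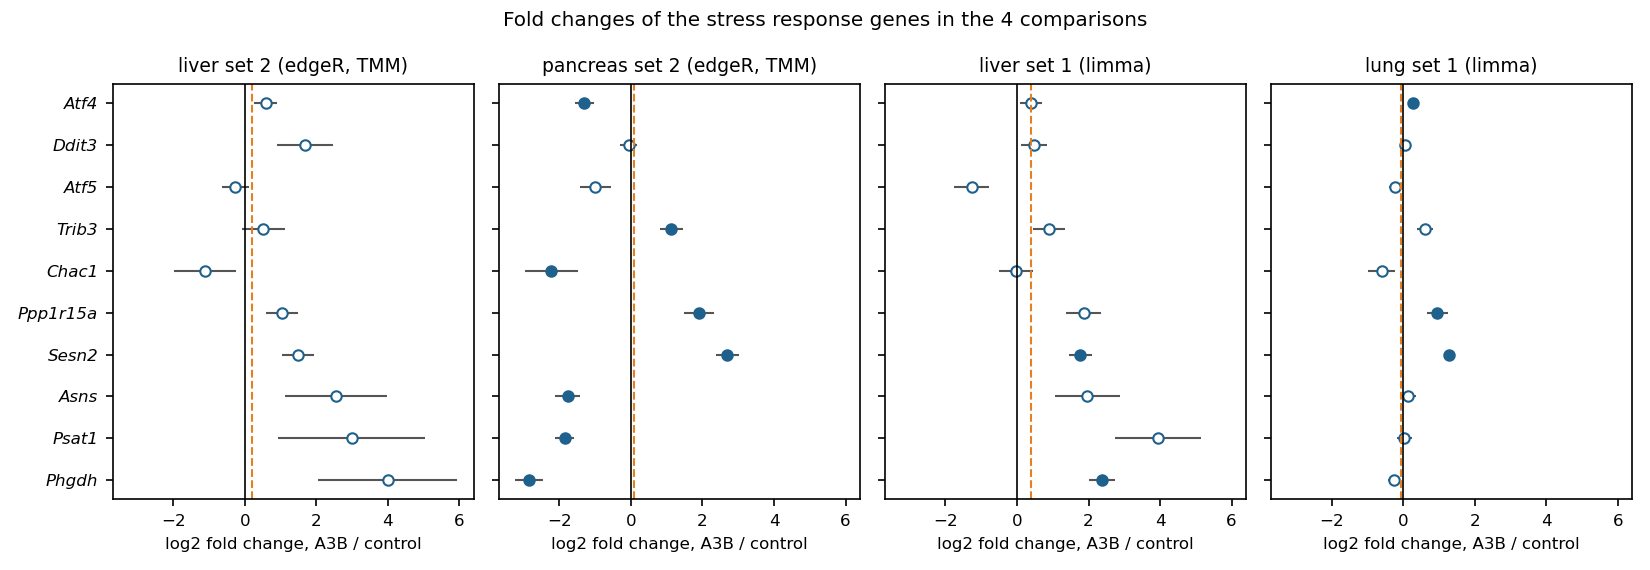
Log2 fold change (A3B over control) with its standard error for the 10 genes in liver and pancreas of set 2 (edgeR with TMM) and in liver and lung of set 1 (limma on log2(TPM + 1)), where filled circles passed an adjusted p of 0.05, open circles did not, and the dashed line is the median of all genes. Sesn2 and Ppp1r15a lay to the right of that median in each panel, and the synthesis enzymes lay to the right in both liver panels and to the left in pancreas with TMM, where Asns and Psat1 change sign with counts scaled by totals.

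Side by side, Sesn2 had log2 fold changes of 1.49 and 1.77 in the 2 liver sets, 2.70 in pancreas with TMM and 1.27 in lung, and Ppp1r15a had 1.03, 1.86, 1.90 and 0.96. These were the 2 genes of the 10 whose A3B samples lay above all controls by TPM in all 4 comparisons, where 6.60% of the 10461 genes tested in all 4 did. The 2 liver sets share no animal, and all 10 genes had the same sign in both, where 77.3% of 10886 genes tested in both did. That includes Atf5 and Chac1, which were below 0 in both, although Atf5 turned positive in set 2 with totals and Chac1 turned positive in set 1 without control 91, A3B liver 23 or A3B liver 70. Atf4, above 0 in both, came to -0.07 in set 1 with samples centred on their medians.

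The order of levels within a tissue, per length by mean TPM, differed between tissues. In control livers of set 2 it ran from Atf5 (249 ± 4.62 SD, n = 2) and Atf4 (53.8 ± 15.2) down to Psat1 (0.845 ± 0.0169) and Phgdh (0.301 ± 0.0448), with Trib3, Ppp1r15a and Ddit3 between 7.40 and 8.50 and within their spread. In control pancreases Atf4 (52.5 ± 15.4) and Phgdh (50.3 ± 1.52) did not differ beyond their spread at the top, and Trib3 (0.836 ± 0.310) and Sesn2 (0.483 ± 0.0918) were at the bottom. In A3B pancreases Atf4 (105 ± 23.0, n = 6) and Ppp1r15a (73.5 ± 21.8) led, Sesn2 had moved to the 7th place (15.6 ± 2.63), and Chac1 (3.57 ± 1.72) was lowest. Within each set, Phgdh, Asns and Psat1 read higher in every control pancreas (set 2) or control lung (set 1) than in every control liver.

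As a description over the 16 samples of set 2, the mean of the 10 standardised, tissue-centred log2 CPM values was compared with each of 19627 genes. The members followed their own mean unequally, with Pearson r of 0.838 for Psat1, 0.794 for Ddit3, 0.777 for Phgdh and 0.756 for Asns, and of 0.306 for Atf4, 0.154 for Sesn2 and 0.076 for Atf5. The 5 genes outside the 10 most like the mean were Polr1e (0.925), Impdh1 (0.915), Tex30 (0.902), Eif2s1 (0.891) and Rab3d (0.885). Eif2s1 encodes eIF2 alpha itself, Polr1e a subunit of RNA polymerase I and Impdh1 an enzyme of guanine nucleotide synthesis. The points share libraries, TMM factors and the A3B against control split.

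The rest of the pathway was read from 8 lists. Of the 4 eIF2 alpha kinases (HRI, PKR, PERK and GCN2), 0 passed in either liver set, beside 3.66% (set 2) and 7.93% (set 1) of all genes. Their median log2 fold changes were 0.46 in set 2 and 0.96 in set 1, beside 0.21 and 0.39 over all genes. Eif2ak2, the double-stranded RNA sensor PKR, was higher in pancreas (0.948 TPM ± 0.433, n = 2, against 23.7 ± 6.65, n = 6, log2 fold change 2.19 with TMM, edgeR adjusted p = 0.000351), the 1 kinase of the 4 called with TMM, where 17.0% of all genes were higher, and all 4 were higher with totals, where 70.4% were. In lung Eif2ak2 (0.45) and Eif2ak3, the endoplasmic reticulum sensor PERK (0.42), were higher, beside 16.1% of all genes. Of 12 subunits of eIF2, eIF2B and the eIF2 phosphatase, 0 passed in either liver set, beside the same 3.66% and 7.93% of all genes. In pancreas 1 passed with TMM, as lower (Eif2s2), beside 14.9% of all genes, and all 12 were higher with totals, beside 70.4%, with a list median of 2.13 below the 2.29 of all genes. In lung 3 passed, beside 36.8% of all genes. There Ppp1r15b, the constitutive relative of Ppp1r15a, was higher (0.54), and Ppp1ca (-0.44), the phosphatase subunit that both bring in, and Eif2b5 (-0.30), of eIF2B, were lower.

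Of the partner and related bZIP factors, 1 of 12 was higher in set 2 livers (Cebpd, 2.06, edgeR adjusted p = 0.0232), where 1.25% of all genes were. In set 1 livers 3 of 11 were higher (Cebpd 2.80, Jun 2.31 and Maff 3.27 in limma), where 6.07% of genes were, and 2 with samples centred on their medians, without Maff (adjusted p = 0.0535). In pancreas 8 of 12 were higher with TMM, where 17.0% of genes were, and all 12 with totals, where 70.4% were, with a list median of 1.15 beside 0.09 over all genes on the TMM scale and 3.53 beside 2.29 with totals. Cebpb, a known partner of ATF4, went from 0.715 TPM ± 0.00157 (n = 2) to 17.4 ± 2.78 (n = 6) there. In lung 5 of 12 were higher, led by Maff (2.78), where 16.1% of genes were.

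Of 15 other stress-induced targets, 2 were higher in set 2 livers and 3 of 13 in set 1 livers, where 1.25% and 6.07% of all genes were, and 0 were lower. Cdkn1a, which encodes the cell cycle inhibitor p21 and is a p53 target too, came to 4.61 (edgeR adjusted p = 0.0141) and 2.91 (limma, 0.0109), and Ddit4, another brake on mTORC1, to 3.48 (0.0301) and 3.6 (0.0228). In pancreas the TMM fit called 5 higher, such as Gdf15 (3.14), a stress hormone, and 5 lower, such as Fgf21 (-5.53), a fasting hormone, while totals gave 10 higher and 1 lower, Fgf21 again. Of all genes there, 17.0% were higher and 14.9% lower with TMM, and 70.4% and 1.10% with totals. In lung 7 of 15 were higher, led by Cdkn1a (2.83) and the death receptor gene Tnfrsf10b (2.35), and 1 was lower (Vegfa, -0.45), beside 16.1% and 20.8% of all genes.

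Of the transporters under ATF4, 0 of 9 passed in either liver set, beside 3.66% (set 2) and 7.93% (set 1) of all genes. In lung 6 of 10 were higher, where 16.1% of all genes were, with Slc38a2 at 1.29, Slc7a1 at 1.51 and Slc7a5 at 1.93. In pancreas 3 of 10 were lower with TMM, where 14.9% of genes were, and 7 were higher with totals, where 70.4% were. For 0 of 9 did the A3B effect differ between liver and lung of set 1, beside 10.7% of all genes. Of the other synthesis enzymes, 1 of 11 was called in set 2 livers and 1 of 9 in set 1 livers. Both were higher, where 1.25% and 6.07% of all genes were. In each set it was Mthfd1l of mitochondrial one-carbon metabolism (3.71 in set 2, edgeR adjusted p = 0.0263, and 3.12 in set 1, limma adjusted p = 0.0312). In pancreas 8 of 11 were lower and 1 higher (Mthfd1l, 2.01) with TMM, and 2 were lower and 5 higher with totals. Of all genes, 14.9% were lower and 17.0% higher with TMM, and 1.10% and 70.4% with totals. The 2 lower with totals were Aldh1l2 (-5.28 with TMM and -2.96 with totals), a mitochondrial folate enzyme, and Pycr1 (-5.11 and -2.63), an enzyme of proline synthesis. In lung 1 of 10 was higher (Got1) and 2 lower, Psph of serine synthesis (-0.67) and Pycr1 (-1.06), beside 16.1% and 20.8% of all genes.

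Of 20 aminoacyl-tRNA synthetases 0 passed in either liver set, beside 3.66% and 7.93% of all genes, and 2 in lung, 1 in each direction, beside 36.8%. In pancreas 2 were higher and 6 lower with TMM, where 17.0% and 14.9% of genes were, and all 20 were higher with totals, where 70.4% were, with a list median of 1.99 that lay below the 2.29 of all genes. Of 15 genes of the other arms of the unfolded protein response, 0 passed in either liver set, beside the same 3.66% and 7.93% of all genes. In pancreas 6 were lower with TMM, among them Sdf2l1 (-2.45), Dnajc3 (-1.81) and Manf (-1.61), where 14.9% of all genes were lower, and with totals 14 were higher, where 70.4% were. The list median with totals was 1.47 beside 2.29 over all genes, with Sdf2l1 at -0.07. In lung 2 were higher, the sensor genes Ern1 (1.42) and Atf6 (0.57), and 3 lower, the chaperone and folding genes Sdf2l1 (-1.04), Manf (-0.54) and Pdia6 (-0.69), beside 16.1% of all genes higher and 20.8% lower.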

How the data were processed

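RNA-seq was analysed in 28 samples, 16 in set 2 and 12 in set 1. For set 2 the authors deposited kallisto's estimated counts and TPM per transcript (mm10). For set 1 they deposited TPM per gene, made from read counts with GenomicAlignments and GenomicFeatures. The set 1 column names carry the mark dedup, and the part of duplicate reads in these levels was not tested. Of 119414 transcripts, 97.8% were matched to GENCODE M21 symbols, unmatched ones held 0.225% to 1.46% of counts, and values were summed per gene and counts rounded. Ddit3 sums 2 gene IDs. Ddit3, Atf5, Ppp1r15a and Sesn2 overlap other genes and Psat1 has a pseudogene, and the strand setting is not given in the sources used here. In set 1, 26 rows bear date-like names.

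Set 2 was tested with edgeR 4.0.16 (filterByExpr, TMM, robust quasi-likelihood F test), set 1 with limma 3.58.1 on log2(TPM + 1) with trend and robust variances for genes that averaged 1 TPM or more, in R 4.3.3. P-values were adjusted by Benjamini-Hochberg over all genes, threshold 0.05. Alternatives were DESeq2 1.42.0, other scalings, filters, a pseudocount of 0.1, a covariate for Y-linked expression and samples left out. The main edgeR and limma fits, with and without the interaction term, were tested on simulated data, and the other steps were not. The 10 genes and the lists were chosen with earlier results of these data known. Named were all 10 genes, up to 3 list genes per direction by p, and the 5 genes most like the mean of the 10. Mouse numbers in the labels pair liver and pancreas. Deviations from group means, over genes, correlated at -0.006 to 0.266 within the 5 A3B mice with both tissues (median 0.202) and at -0.192 to 0.285 (median -0.054) between other mice.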

Additional observations from a re-analysis of the deposited data

Results flagged for a closer look

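Among the 20 combinations of a gene and a group of 6 samples, 1 was far from its group: Phgdh in A3B liver 49, at 21.7 TPM, where the gap to the next liver took 0.626 of the range of log2(TPM + 1) beside a limit of 0.625. Chance puts about 1 in 20 groups past this limit. The same liver had the lowest hepatocyte and the highest macrophage marker sum of the 8 livers, and the part of these in the Phgdh value was not tested.

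The A3B effect differed between tissues for Atf4 (pancreas minus liver -1.72 on the log2 scale), for Phgdh in the same comparison (-6.63) and for Phgdh between liver and lung (2.64). Neither pancreas minus liver difference passed with the mouse as a replicate block (Atf4 -1.61, edgeR adjusted p = 0.0714, and Phgdh -5.03, 0.0663), nor without control mouse 45, and Phgdh did not pass without mouse 44, 53, 137 or 168 either. The Atf4 difference was -0.04 with counts scaled by their totals, and both Phgdh differences kept their sign under each alternative run.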

How the results depend on the processing

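Of 646 refits of single genes under alternatives, 544 kept their direction and their side of the threshold. In set 2 livers, 1 of the 10 genes passed with counts scaled by their totals, in DESeq2 and in the fit over the 16 samples, 2 passed with livers 48 and 49 left out (an alternative added after the data were seen), and 0 passed without any single liver, beside 0.394 to 9.34% of all genes. Atf5 turned to 0.20 with totals and 0.05 in limma on log2(TPM + 1). DESeq2 gave no p for Ddit3 and Phgdh there, nor for Psat1 and Phgdh in the interaction.

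In pancreas, totals and limma on TPM turned Atf4 to 1.01 and 0.99, Ddit3 to 2.17 and 1.69, Atf5 to 1.42 and 1.25, Chac1 to 0.46 and 0.48, Asns to 0.61 and 0.35 and Psat1 to 0.45 and 0.29. These 2 scales keep the whole rise of 2.29 and 1.75 in the median gene. Ddit3 came to 0.02 in the fit over the 16 samples and to 0.02 with pancreases 44 and 137 left out (added after the data were seen). The fit over the 16 samples called 3 genes. Leaving out 1 sample gave 5 (without control 45) to 8 calls, beside 19.0 to 30.8% of all genes, Ddit3 at -0.15 to 0.01 and Chac1 at -3.09 to 0.46.

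For pancreas minus liver, totals called 4 genes and turned Atf5 to 1.22 and Chac1 to 1.01. The replicate block, by mouse, called 1 gene and turned Chac1 to 0.30. Leaving out 1 mouse gave 0 (without control 45) to 3 calls, beside 0.397 to 15.1% of all genes, Atf5 at -1.17 to 0.33 and Chac1 at -1.60 to 1.51.

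In set 1 livers, centring called 1 gene and turned Atf4 to -0.07, and no filter on low values called 0, beside 0.282% of all genes. Leaving out 1 liver gave 0 (without control 91 or 92) to 4 calls (without A3B liver 70) and Chac1 at -0.39 to 0.36. In lung, centring called 1 gene, and no filter on low values called 2, beside 25.1% of all genes. Leaving out 1 lung gave 1 to 2 calls, Ddit3 at -0.05 to 0.14 and Psat1 at -0.14 to 0.26. For liver minus lung, centring turned Atf4 to -0.38, Ddit3 to -0.05 and Trib3 to -0.21, and the replicate block kept the 1 call, Phgdh. Where a cause is not named here, the cause was not tested. Calls rest on 2 controls in set 2 and 3 in set 1, so single controls decide several of them, and depth is unknown in set 1.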
